A study of Mus musculus with 21 samples.

Results

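The genes described here encode neuronal ion channels and neurotransmitter receptors, and the values are DNA methylation capture in synovial fibroblasts, mesenchymal cells of the joint lining, cultured from mice. Regions were chosen by gene symbol alone: those annotated to a gene whose symbol begins with Kcn (apart from a few genes not reported here), Cacn, Scn followed by a number, Gria, Grik, Grin, Grm, Gabr, Glr or Chrn. The rule found 409 regions at 137 genes, of 49307 regions listed in 4 tables. They comprised 110 of 13125 regions at 3 weeks (71 genes), 88 of 11975 at 8 weeks (57 genes), 59 of 7309 at 11 weeks (43 genes) and 152 of 16898 after TNF treatment (89 genes). For 4 of the 409 regions the symbol matched by its letters only, since Glrx2, Glrx3, Glrx5 and Glrp1 are no channel or receptor subunits. These 4 were counted as members and are described apart.

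Tg197 is a transgenic line in which human TNF is overproduced and polyarthritis follows. Its fibroblasts were set against those of wild-type (WT) mice, all of CBA x C57BL/6J background and at passages 4 to 5. The 21 samples formed 7 groups of 3: WT and Tg197 at 3 weeks of age (early disease), at 8 weeks (established) and at 11 weeks (late), and WT at 8 weeks treated with TNF. Neither the TNF dose and time nor whether replicates were separate cultures or animals is given in the sources used here. A p-value therefore reflects the scatter among libraries of a group, and this scatter could be technical. In MethylCap-seq, fragmented DNA is bound to a methyl-CpG-binding protein and the bound part is sequenced, so that more reads mean more captured methylated CpG DNA. The assay reads DNA and not transcripts, so neither the expression of these genes nor the identity of the cells could be checked from it. In a bulk culture a change in part of the cells and a smaller change in all of them cannot be told apart.

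Each table lists only regions that the authors found different between 2 groups. A listed region was therefore already selected for a difference, and regions without a difference have no value here. Reads recovered within listed regions ran from 385155 to 544797 per library at 11 weeks, the shallowest table, and from 2230884 to 2875554 at 3 weeks, the deepest. The values of TNF-treated libraries 1 and 2 were the same at each of the 16898 regions, so the pair entered every fit once, and 2 TNF-treated samples were set against 3 WT samples. Both 8-week tables use the same WT libraries, so their folds are not independent. Values are normalized reads as deposited, in the order of libraries within a group, and folds are differences of log2(value + 1) from limma with Benjamini-Hochberg adjustment over all regions of the table. A region was called higher or lower at an adjusted p under 0.05, always relative to WT. All coordinates are mm9.

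Voltage-gated sodium, potassium and calcium channels open on depolarization and shape the action potential, calcium entry and repolarization. Glutamate receptors of the AMPA, kainate and NMDA classes carry fast excitation, metabotropic glutamate receptors act through G proteins, GABA-A and glycine receptors carry inhibition, and nicotinic receptors respond to acetylcholine. In fibroblasts most of these genes are not needed for cell identity, although some potassium and calcium channels are also found in non-excitable cells. Methylation near a start site is commonly linked to low promoter activity, whereas methylation within gene bodies has no such fixed relation.

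Only 31 of the 409 regions lay within 3 kb of a transcription start. Of these, 4 covered the start itself: 1 at Kcnd2 at 3 weeks, 1 at Kcnv2 at 11 weeks, and 1 at Scn4a in each of the 8-week tables. Scn4a encodes the pore-forming sodium channel of skeletal muscle. The 250 bases before its RefSeq start are shown because the captured region reached 297 bases before its mm9 start. Those of Kcnd2, which encodes an A-type potassium channel subunit, are shown because a listed region begins 7 bases before its mm9 start. Both were taken from RefSeq, GRCm38.p6, by gene symbol (100 of the 137 genes had an entry), are written 5′ to 3′ on the gene's strand, and have each CG dinucleotide in capitals.
Scn4a: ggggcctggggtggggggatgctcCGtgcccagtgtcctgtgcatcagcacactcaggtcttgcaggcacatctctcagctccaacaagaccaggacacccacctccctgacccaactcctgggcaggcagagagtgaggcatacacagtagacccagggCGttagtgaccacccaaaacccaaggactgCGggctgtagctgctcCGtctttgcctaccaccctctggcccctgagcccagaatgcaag
Kcnd2: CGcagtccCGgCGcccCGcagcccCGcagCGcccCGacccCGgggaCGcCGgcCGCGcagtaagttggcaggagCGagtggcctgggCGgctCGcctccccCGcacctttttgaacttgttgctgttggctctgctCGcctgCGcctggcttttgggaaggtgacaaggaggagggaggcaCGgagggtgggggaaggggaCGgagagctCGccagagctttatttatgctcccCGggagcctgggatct
The Scn4a window holds 4 CG and the Kcnd2 window 22. Across 32851 RefSeq promoter windows of the same 250 bases the median was 6 CG, and 92.1% held at least 1. The count of 4 or fewer was found in 44.4% of these windows and that of 22 or fewer in 86.7%. CG reads the same on both strands. No position was carried over between builds, so whether the RefSeq and mm9 starts are the same site was not checked.

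Capture at the Scn4a promoter was lower in both 8-week comparisons. At 8 weeks (chromosome 11, 106210301 to 106211000) the values were 79.5, 104 and 121 in Tg197 and 163, 159 and 143 in WT. After TNF (106210101 to 106211000) they were 114 and 119 in treated cells against 213, 196 and 178 in WT. Every Tg197 and every TNF-treated library lay below every WT library. The log2 folds were -0.62 (SE 0.20, limma adjusted p = 0.0432) and -0.74 (SE 0.13, adjusted p = 0.0109). The call in Tg197 was lost on leaving out any of 5 libraries, with folds from -0.76 to -0.46, and passed without Tg197 library 2. At the start of Kcnd2, 3-week values were 215, 213 and 224 in Tg197 and 238, 235 and 218 in WT, which overlapped (log2 fold -0.08, adjusted p = 0.276). This region began 7 bases before the mm9 start. Its place relative to the window shown was not checked, and its own CG content was not counted. A second Kcnd2 region, centred 992.5 bp into the gene, was lower, at 213, 191 and 208 against 314, 264 and 267 (log2 fold -0.46, SE 0.08, adjusted p = 0.00146).

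Of the 31 promoter regions, 8 were higher, 19 lower and 4 did not pass. At 8 weeks 6 of 7 were lower and none was higher, where 301 of all 918 listed regions within 3 kb of a start were called lower and 91 higher. After TNF 10 of 13 were lower and 3 higher, beside 697 lower and 261 higher of all 1009. At 3 weeks 2 of 7 were higher and 3 lower, beside 324 higher and 277 lower of all 712, and at 11 weeks 3 of 4 were higher, beside 199 higher and 134 lower of all 429. The classes differed at 8 weeks. From 1 to 3 kb around a start 222 of all 458 regions were lower and 48 higher, whereas within 250 bp, the class of the Scn4a region, 19 of all 214 were lower and 13 higher and 190 were listed by the authors as gained. Cacnb4, whose product is an auxiliary beta subunit of calcium channels, was lower about 2.7 kb into the gene in both 8-week tables. Its values were 3.98, 15.9 and 8.83 in Tg197 against 32.1, 34.5 and 26.5 in WT (log2 fold -1.76, adjusted p = 0.0428). After TNF they were 29.9 and 24.8 against 66.8, 61.7 and 38.1 (log2 fold -0.96, adjusted p = 0.0112). The groups did not overlap in either.

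**Figure D1:**
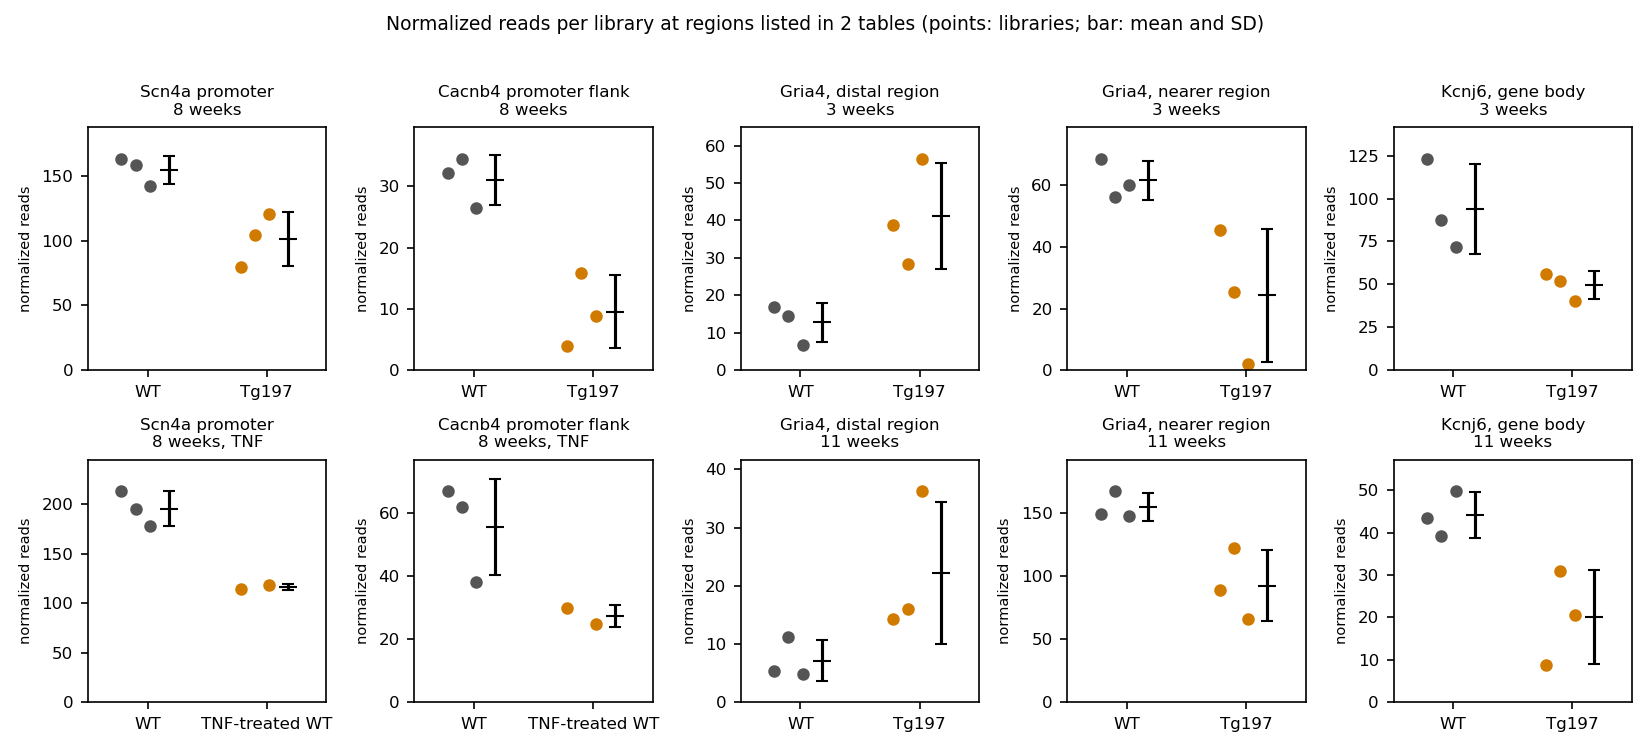
Normalized reads per library at 5 regions listed in 2 tables, one region per column, with the vertical axes starting at 0. Points are single libraries and bars the mean with its SD (n = 3 per group, n = 2 for TNF-treated cells). At each region shown the groups were separated in both tables and the direction was shared.

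Kcnh3, which encodes a brain channel of the ether-a-go-go family, was likewise lower near its start in both 8-week tables, by -2.16 in Tg197 (5.3, 5.54 and 0 against 16.1, 14.2 and 13.3) and by -1.19 after TNF (19.9 and 22.3 against 57.4, 50.3 and 41.8). Other promoter regions lower at 8 weeks were those of the inward rectifier Kcnj12 (2.65, 4.15 and 7.35 against 17.8, 15.0 and 11.1) and of Kcna7, with log2 folds of -1.51 and -1.37. That of Kcnb2 did not pass (log2 fold 0.32, adjusted p = 0.112). After TNF, losses near starts covered Kcnd3 (-2.30), Chrna1 (-1.98), Kcna10 (-1.63), Cacna1f (-1.59), Cacnb3 (-1.44) and Chrnb1 (-1.28). Chrna1 and Chrnb1 encode subunits of the muscle acetylcholine receptor. Their values were 7.96 and 4.96 against 40.2, 42.7 and 12.3 for Chrna1 and 6.97 and 11.2 against 27.4, 19.8 and 22.1 for Chrnb1, with no overlap. Gains near starts after TNF were at Kcna3, the main voltage-gated potassium channel of T cells (11.9 and 9.92 against 5.14, 1.52 and 1.23, log2 fold 1.87), at Gria4 (12.9 and 12.4 against 3.42, 4.57 and 3.69, log2 fold 1.49) and at Kcnj8, a subunit of ATP-sensitive potassium channels (38.8 and 50.8 against 18.0, 21.3 and 29.5, log2 fold 0.95). Values this low rest on few reads per library.

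At 3 weeks, the promoter flank of Kcnk10, a two-pore leak channel, rose from 5.63, 10.9 and 22.7 in WT to 30.2, 36.8 and 39.6 in Tg197 (log2 fold 1.56, adjusted p = 0.00245). That of Cacna2d1, an alpha2-delta calcium channel subunit, rose from 18.8, 23.5 and 18.2 to 48.6, 28.3 and 52.4 (log2 fold 1.02). Cacng7 had a log2 fold of -0.30 (adjusted p = 0.00324), and Cacng2 did not pass (0.08). At 11 weeks the promoter regions of Kcns3 (log2 fold 0.89), Kcng1 (0.84) and Kcnh1 (0.63) were higher with no overlap. The Kcnv2 region at the start was at 134, 128 and 119 against 229.8, 184 and 143, which did not pass the test (log2 fold -0.52, adjusted p = 0.0631).

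Over all 409 regions, direction differed between the comparisons. At 3 weeks 51 of 110 were higher, 46 lower and 13 did not pass, and 85.0% of all listed regions were called (40.3% higher, 44.7% lower). At 8 weeks 17 of 88 were higher and 38 lower, where 54.0% of listed regions were called (17.4% higher, 36.6% lower). At 11 weeks 28 of 59 were higher and 24 lower, where 77.9% were called (49.7% higher, 28.2% lower). After TNF 42 of 152 were higher and 102 lower, where 93.8% were called (29.8% higher, 64.1% lower). As shares called, these were 88.2%, 62.5%, 88.1% and 94.7% of the channel and receptor regions, close to the background except at 8 and 11 weeks, where they were above it. Among gene-body regions alone, the 8-week shares were near equal, 60.5% of members and 59.8% of all listed. At 11 weeks they were 89.1% and 78.3%. The calls at 8 weeks fell to 0 on leaving out Tg197 library 1, Tg197 library 3, WT library 1 or WT library 2. At an unadjusted p under 0.05 were then 61, 50, 34 and 32 of the 88. Each of these omissions also left 0 of all 11975 listed regions called. Without Tg197 library 2 the channel and receptor calls came to 31 higher and 39 lower, and without WT library 3 to 9 and 23. The 11-week calls fell to 0 without Tg197 library 1, Tg197 library 3 or WT library 2. At an unadjusted p under 0.05 were then 48, 45 and 45 of 59. Over all 7309 listed regions the calls were 0 higher and 10 lower without Tg197 library 1. They were 0 and 0 without Tg197 library 3 or WT library 2. Under each omission 110 of 110, 86 of 88, 59 of 59 and 150 of 152 folds kept their sign. That sign was part of what put a region in its table. Groups did not overlap, with the treated or Tg197 libraries higher or lower, at 53 and 48 regions at 3 weeks, where 86.1% of all listed regions did not overlap (40.6% higher, 45.5% lower). At 8 weeks these counts were 24 and 47 (69.6% of all listed regions, 27.2% higher and 42.3% lower), and at 11 weeks 28 and 26 (83.7%, 49.4% higher and 34.3% lower). After TNF they were 47 and 100 (95.8%, 32.3% higher and 63.5% lower).

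**Figure D2:**
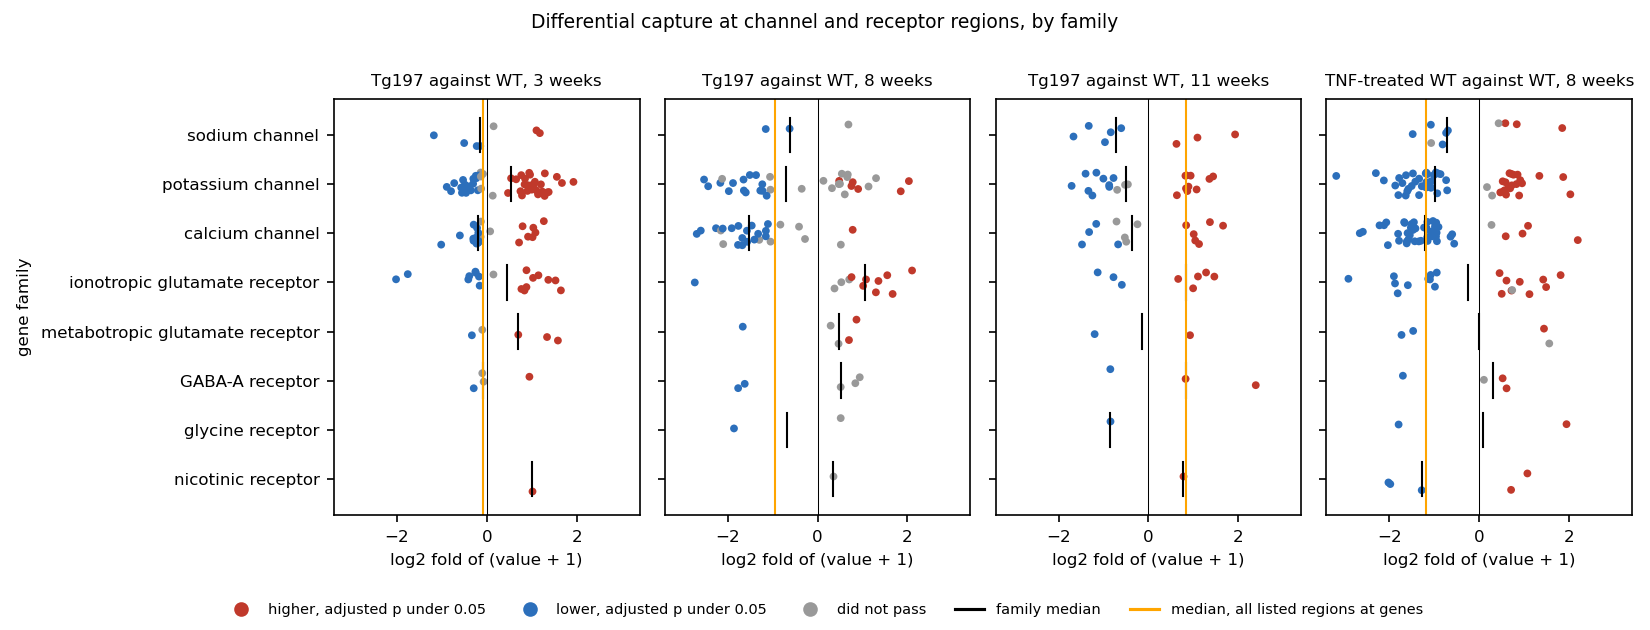
Log2 fold of each channel and receptor region (points) by gene family and comparison, with Tg197 or TNF-treated cells over WT on the horizontal axis. Black bars are family medians and orange lines the median of all listed regions at genes. Calcium channel regions lie to the left at 8 weeks (median -1.52) and after TNF (-1.20), and ionotropic glutamate receptor regions to the right at 8 weeks (median 1.05).

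Higher and lower calls differed in read level, among these regions as among all listed ones. At 3 weeks the median level was 25.7 normalized reads at higher members and 223 at lower members, beside 27.9 and 235 over all listed regions. At 8 weeks and after TNF it was reversed: higher members had medians of 39.9 and 59.8, lower members 14.5 and 19.7, beside 55.2 and 82.7 and 16.9 and 17.1 over all. At 11 weeks the medians were 32.7 at higher and 45.8 at lower members, beside 22.3 and 51.7 over all. Of the 48 members under 30 normalized reads at 8 weeks, 33 were lower and 8 higher, while of all 4894 listed regions in that range 3230 were lower and 611 higher. At 11 weeks 13 of the 22 members in that range were higher and 9 lower, while of all 3215 listed regions 2430 were higher and 571 lower. The part of read level in the family counts below was not tested.

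**Figure D3:**
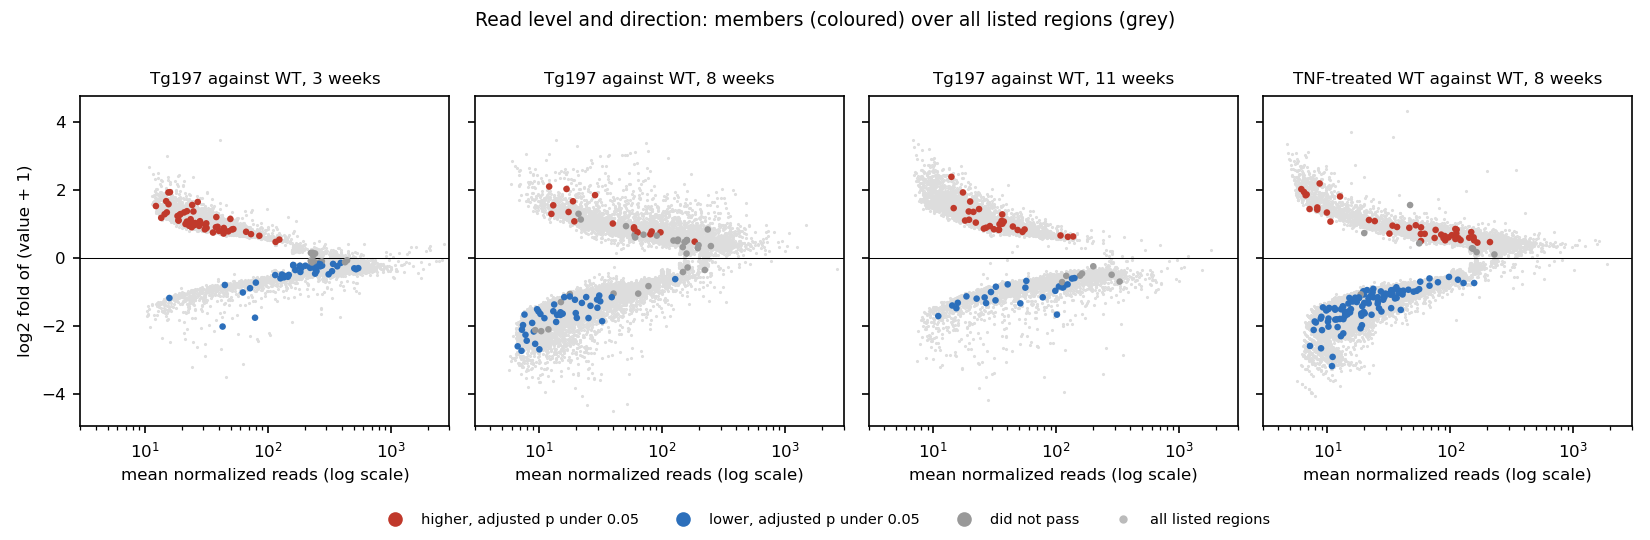
Log2 fold against mean normalized reads (log scale) for the channel and receptor regions, coloured by call, over all listed regions in grey. At 3 weeks gains lie at low and losses at high read level, and after TNF the reverse, with the coloured points inside the grey ones.

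Potassium channels made up 163 of the regions, at 58 genes. Their pore-forming subunits set the resting potential and end the action potential, and auxiliary subunits tune their gating. At 3 weeks 27 of 51 were higher and 19 lower (25 and 12 of 39 without regions whose deposited p was over 10 times below an exact binomial bound). At 8 weeks 6 of 34 were higher and 14 lower, at 11 weeks 10 of 22 and 9, and after TNF 20 of 56 and 34. Over all listed regions at genes, 2850 of 6639 were higher and 2772 lower at 3 weeks, and 694 of 5745 and 2585 at 8 weeks. At 11 weeks they were 1962 of 3722 and 951, and after TNF 1935 of 9284 and 6774. Without regions beyond the binomial bound, 5031 of 8240 listed regions at 3 weeks were higher and 2531 lower. With them, 5291 of 13125 were higher and 5862 lower. The family counts below stand beside the same shares. The largest gain at 3 weeks was at Kcnc1, a fast delayed rectifier (chromosome 7, 53669701 to 53670500, gene body), at 19.4, 34.9 and 20.8 in Tg197 against 3.76, 9.95 and 4.54 in WT (log2 fold 1.93, SE 0.38, adjusted p = 0.00166). A different Kcnc1 region, about 33 kb into the gene, was lower in both 8-week tables. It stood at 3.98, 2.08 and 1.47 against 13.5, 13.5 and 9.95 in Tg197 (log2 fold -1.98) and at 17.9 and 17.4 against 53.1, 39.6 and 27.0 after TNF (-1.08). The largest fall after TNF was at Kcne1, an auxiliary subunit of cardiac potassium channels, with 3.98 and 0 against 22.3, 23.6 and 13.5 (log2 fold -3.18, adjusted p = 0.0109).

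Kcnma1, the large-conductance calcium-activated potassium channel, had 8 regions at 3 weeks, from 14.3 to 695 kb into the gene. The 5 that were higher lay within the first 411 kb and had log2 folds up to 1.29, and the 3 that were lower lay farther in with folds from -0.30 to -0.20. At 8 weeks 2 of its 3 regions were lower, one at 2.65, 4.15 and 0 against 15.2, 15.7 and 9.95 (log2 fold -2.43). The region about 14 kb into the gene was listed at 3 weeks, at 67.0, 64.1 and 71.2 against 43.2, 42.5 and 27.3 (log2 fold 0.85), and after TNF, at 4.98 and 1.24 against 15.4, 16.0 and 13.5 (log2 fold -2.12). Its accessory subunit gene Kcnmb4 had an overlapping region listed in 3 tables, about 32 kb into the gene. It was higher at 3 weeks (log2 fold 0.75) and after TNF (1.34), and at 8 weeks was at 23.9, 12.5 and 58.8 against 10.2, 12.7 and 7.74, which overlapped (1.30, adjusted p = 0.0808).

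The inward rectifier gene Kcnj6, whose product is a G-protein-gated channel, had 5 regions at 11 weeks, all lower, with log2 folds from -1.40 to -0.78. One of them (chromosome 16, 95095351 to 95096100) was also lower at 3 weeks. There Tg197 was at 56.2, 51.9 and 40.5 and WT at 123, 87.8 and 71.6 (log2 fold -0.89, adjusted p = 0.00187). At 11 weeks Tg197 was at 8.78, 30.9 and 20.7 and WT at 43.5, 39.1 and 49.7 (log2 fold -1.25, adjusted p = 0.0238). The groups were apart at both ages. The 3-week table also held 2 higher Kcnj6 regions (0.91 and 0.96) and that of 8 weeks a single one (0.48), so the uniform loss was not found at the other ages. Kcnh1, an ether-a-go-go channel known from tumour cells, was higher at 1 region in each of the 4 tables, with log2 folds of 1.34, 1.85, 0.63 and 0.89 in the order 3, 8 and 11 weeks and TNF. No 2 of these Kcnh1 regions overlapped.

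Other potassium channel regions named by size were Kcnh6 at 8 weeks, Kcng1 and Kcnip4 at 11 weeks and Kcna3 after TNF. Kcnh6 rose at 8 weeks from 2.54, 4.49 and 13.3 to 19.9, 22.1 and 38.2 (log2 fold 2.03), while an overlapping region at 11 weeks stood at 196, 484 and 139 against 402, 386 and 362 and did not pass, with Tg197 library 2 above all WT libraries. Kcng1, a modulatory subunit, rose at 11 weeks from 8.16, 10.2 and 19.5 to 42.3, 25.2 and 36.2 (1.44). Kcnip4, a calcium-binding partner of A-type channels, fell at 11 weeks from 16.3, 14.9 and 19.5 to 5.58, 8.02 and 1.72 (-1.71).

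Genes with the prefix Cacn, counted as calcium channel genes by symbol alone, gave 111 regions at 22 genes. Of these regions 77 were lower, 18 higher and 16 did not pass. The direction was one-sided at 8 weeks, where 17 of 26 were lower and 1 higher, and after TNF, where 43 of 48 were lower and 4 higher. Over all listed regions at genes, 2585 of 5745 were lower and 694 higher at 8 weeks, and 6774 of 9284 and 1935 after TNF. Under 30 normalized reads after TNF, 31 of 33 calcium channel regions were lower, beside 5092 of 5686 at genes. Of the 43 lower regions after TNF, 14 were at Cacna1c. At 3 weeks 13 of 23 were lower and 7 higher. This turned to 4 lower and 7 higher of 12 when the regions beyond the binomial bound were left out. Over all listed regions the same step turned 5862 lower and 5291 higher into 2531 and 5031. At 11 weeks 4 of 14 calcium channel regions were lower and 6 higher. Of the 26 at 8 weeks, 24 had a fold below 0, with or without any single library, though the sign was part of what put a region in its table. The median fold was -1.52 beside -0.94 over all listed regions at genes. After TNF the median was -1.20 beside -1.18. Of the 26 regions, 19 had under 30 normalized reads, a range in which all 19 had a fold below 0, as did most of the table. The calls at 8 weeks numbered 0 lower without Tg197 library 1, Tg197 library 3, WT library 1 or WT library 2. Lower at an unadjusted p under 0.05 were then 22, 20, 12 and 11. The lower calls numbered 19 without Tg197 library 2 and 11 without WT library 3. Where they numbered 0, so did the calls over all listed regions.

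Cacna1c encodes the pore of the L-type channel Cav1.2, and with 21 regions it was the gene listed most often. At 3 weeks its 4 regions were all higher. The one nearest the start rose from 5.63, 16.3 and 12.5 to 24.8, 26.4 and 29.7 (log2 fold 1.27, SE 0.34, adjusted p = 0.00341), and the others had folds of 0.72, 1.04 and 1.08. At 8 weeks both regions were lower, at 9.28, 17.3 and 14.7 against 53.3, 37.5 and 25.4 (-1.41) and at 5.3, 12.5 and 2.94 against 22.0, 19.5 and 22.1 (-1.67). After TNF all 14 regions were lower, with folds from -2.07 to -0.64, along 98.0 to 605 kb of the gene. The highest of them was at 103 and 78.1 against 146, 148 and 127, and the lowest at 1.99 and 4.96 against 20.6, 12.2 and 9.83. In each of the 14, both TNF-treated samples lay below all 3 WT libraries. The single region at 11 weeks did not pass (-0.49, adjusted p = 0.11). Tested regions differed between the 3-week and the later tables, and none of the 4 higher regions overlapped a lower one.

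**Figure D4:**
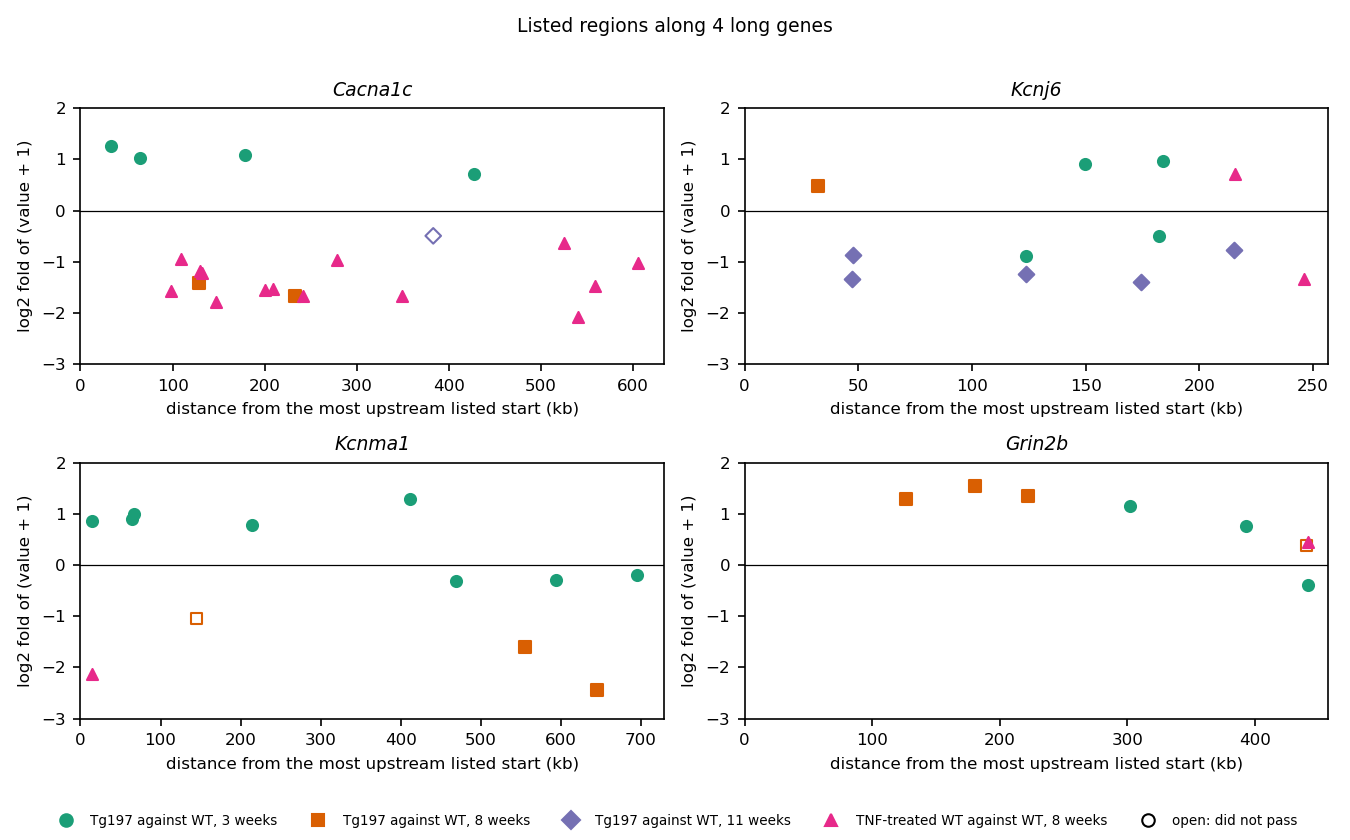
Listed regions along Cacna1c, Kcnj6, Kcnma1 and Grin2b, with the distance from the most upstream listed start (kb) on the horizontal axis and the log2 fold on the vertical axis. Symbols give the comparison and open symbols did not pass. Cacna1c lies above 0 at 3 weeks only, Kcnj6 below 0 at 11 weeks, and Grin2b above 0 at 8 weeks.

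Among other pore subunits, the P/Q-type gene Cacna1a had 4 regions at 8 weeks with folds below 0, of which 2 passed. One stood at 0, 3.46 and 2.94 against 32.1, 11.99 and 9.95 (log2 fold -2.69, adjusted p = 0.0428). Another, about 144 kb into the gene, was below WT in every library at 8 weeks (9.28, 4.15 and 11.8 against 32.1, 18.7 and 14.4) without passing (-1.30, adjusted p = 0.0597). At 11 weeks an overlapping region was lower, at 13.6, 21.8 and 12.9 against 39.4, 32.6 and 37.0 (-1.16, adjusted p = 0.0219). The T-type genes Cacna1g and Cacna1h each had a region lower in both 8-week tables. Cacna1g was at 23.9, 19.4 and 14.7 against 45.7, 48.7 and 33.2 in Tg197 (-1.10) and at 21.9 and 22.3 against 45.4, 49.5 and 36.9 after TNF (-0.95). Cacna1h was at 6.63, 15.9 and 16.2 against 34.7, 33.0 and 27.6 (-1.32) and at 14.9 and 13.6 against 35.1, 33.5 and 30.7 (-1.16).

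Cacna1d, another L-type pore subunit, gave the largest fall of the family after TNF (4.98 and 0 against 19.7, 17.5 and 8.6, log2 fold -2.66) and the largest rise at 11 weeks (27.1, 25.2 and 36.2 against 2.72, 13.03 and 15.6, 1.66). Of the auxiliary subunits, Cacnb4 had a further region about 51 kb into the gene that was lower in both 8-week tables (-1.57 and -2.59). Cacnb2 fell at 11 weeks (7.98, 5.73 and 9.48 against 19.0, 27.0 and 23.4, -1.48). Cacna2d3 had a region about 619 kb into the gene that was higher at 11 weeks, at 63.8, 73.3 and 75.9 against 29.9, 46.5 and 42.9 (0.84), and after TNF, at 73.7 and 64.5 against 30.8, 46.5 and 29.5 (0.96). The genes named as gamma subunits (Cacng) were mixed, and whether each acts in a calcium channel was not checked. Cacng5 fell at 3 weeks (-1.01), and a second region fell at 8 weeks (-1.47) and was higher at 11 weeks (1.37). Cacng3 was the only calcium channel region called higher at 8 weeks, with 128.6, 73.3 and 113 against 51.6, 53.9 and 74.0, which overlapped (0.78, adjusted p = 0.0467). Cacng4 had a region that rose after TNF from 5.99, 3.81 and 0 to 16.9 and 11.2 (2.19), and another that was lower (-0.98).

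Sodium channel genes gave 28 regions at 11 genes, of which 16 were lower and 8 higher. At 11 weeks 5 of 8 were lower, and all 5 lay at Scn1a and Scn7a on chromosome 2. Scn1a, a neuronal pore subunit, had 3 lower regions, the largest change at 31.9, 85.9 and 31.9 against 226, 93.1 and 140.3 (log2 fold -1.67, adjusted p = 0.0219). Scn7a, which encodes an atypical sodium channel, had 2, with folds of -0.84 and -0.97. Scn3a, on the same chromosome, rose at 11 weeks from 5.44, 11.2 and 3.9 to 19.9, 22.9 and 41.4 (1.93) and at another region at 3 weeks from 7.51, 7.24 and 9.09 to 17.3, 20.7 and 19.8 (1.18). Scn8a, the main channel of axon initial segments, was lower about 62 kb into the gene in both 8-week tables, at 15.9, 42.9 and 17.6 against 58.3, 53.2 and 46.4 (-1.15) and at 55.8 and 42.1 against 98.5, 82.3 and 78.6 (-0.81). Scn11a rose after TNF from 1.71, 4.57 and 1.23 to 12.9 and 8.68 (1.85).

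Ionotropic glutamate receptor genes stood out at 8 weeks in the opposite direction to the calcium channels. Of 12 regions 8 were higher and 1 lower, beside 694 higher and 2585 lower of all 5745 listed regions at genes. The median fold was 1.05 beside -0.94 over all listed regions at genes. Folds were above 0 at 11 of 12, with or without any single library, though the sign was part of what put a region in its table. Under 30 normalized reads lay 7 of the 12, and 6 of those 7 were higher. The higher calls numbered 0 without Tg197 library 1, Tg197 library 3, WT library 1 or WT library 2. Higher at an unadjusted p under 0.05 were then 8, 6, 6 and 5. The higher calls numbered 9 without Tg197 library 2 and 3 without WT library 3. Where they numbered 0, so did the calls over all listed regions. In the other tables gains and losses numbered 9 and 8 of 18 at 3 weeks (9 and 4 of 13 without regions beyond the binomial bound), 5 and 3 of 8 at 11 weeks, and 9 and 10 of 20 after TNF.

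Grin2b, an NMDA receptor subunit, supplied 4 of the 8-week regions. Its 3 called regions were at 27.8, 22.1 and 26.5 against 10.2, 8.99 and 8.84 (log2 fold 1.35), at 25.2, 11.8 and 23.5 against 6.76, 6.74 and 4.42 (1.55) and at 15.9, 18.0 and 20.6 against 6.76, 4.49 and 9.95 (1.30). Groups did not overlap in any of them. The kainate receptor genes moved both ways within one gene. Grik1 was higher about 65 kb into the gene (31.8, 13.8 and 14.7 against 2.54, 7.49 and 2.21, 2.10) and lower about 87 kb in (2.65, 1.38 and 0 against 16.9, 13.5 and 8.84, -2.73), both at adjusted p = 0.0428. The latter region was also lower after TNF, at 1.99 and 3.72 against 16.3, 13.7 and 9.83 (-1.90). Grik3 had neighbouring regions after TNF, about 205 and 207 kb into the gene, of which one rose from 5.99, 10.7 and 1.23 to 23.9 and 14.9 (1.81) and the other fell from 17.1, 16.8 and 23.4 to 5.97 and 0 (-2.91). Grik4 was higher in each of the 3 Tg197 tables, at 4 regions in all with folds from 0.88 to 1.28, and after TNF was higher at 1 region and lower at 2.

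Gria4, an AMPA receptor subunit gene within the first 5 Mb of chromosome 9, had 2 regions that were each listed at 3 and at 11 weeks. The region from 4667201 to 4668100 rose at 3 weeks from 16.9, 14.5 and 6.82 to 38.9, 28.3 and 56.4 (log2 fold 1.65, SE 0.34, adjusted p = 0.00177). At 11 weeks (4667201 to 4667950) it rose from 5.44, 11.2 and 4.87 to 14.4, 16.0 and 36.2 (1.47, SE 0.48, adjusted p = 0.0236). Tg197 library 3 was the highest of its group at both ages, and no WT library reached the lowest Tg197 library. The region from 4772101 to 4772600 fell at 3 weeks from 68.5, 56.1 and 60.2 to 45.4, 25.5 and 1.98 (-2.02, SE 0.63, adjusted p = 0.00818). At 11 weeks (4771951 to 4772600) it fell from 149.6, 168 and 148 to 89.4, 123 and 66.4 (-0.78, adjusted p = 0.0236). Here too the groups were apart at both ages, with Tg197 library 3 lowest. The WT and Tg197 libraries of the 2 ages are different samples, so these 2 tables share no control.

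Metabotropic glutamate receptor genes gave 16 regions, of which 7 were higher, 5 lower and 4 did not pass. Grm4 was higher at 3 weeks (21.6, 29.2 and 20.8 against 7.51, 5.43 and 9.09, log2 fold 1.58) and at 8 weeks (68.9, 67.1 and 94.1 against 39.7, 33.7 and 52.0, 0.87). Another Grm4 region, 3647.5 bp into the gene, was lower at 8 weeks (1.33, 4.15 and 4.41 against 13.5, 13.5 and 8.84, -1.67). Grm5 fell at 3 weeks (-0.33, adjusted p = 0.00891). Grm8 rose at 11 weeks (0.93) and Grm3 after TNF (11.9 and 9.92 against 3.42, 3.05 and 3.69, 1.44).

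GABA-A receptor genes gave 16 regions with 5 higher, 5 lower and 6 not passing, and glycine receptor genes 5 with 1 higher and 3 lower. The largest rise of any channel or receptor region at 11 weeks was at Gabrb1, a GABA-A receptor beta subunit (chromosome 5, 72460551 to 72461050, gene body). It stood at 22.3, 26.3 and 22.4 in Tg197 against 2.72, 1.86 and 8.77 in WT (log2 fold 2.39, SE 0.52, adjusted p = 0.0219). Gabrb2 fell at that age (77.4, 82.5 and 79.3 against 213, 121 and 116, -0.85). Gabrg3 held a lower region (-0.29) and a higher one (0.95) within 3 kb of each other at 3 weeks, and another was higher after TNF (0.61). Gabrr2 had a region that fell after TNF (3.98 and 14.9 against 26.5, 22.1 and 36.9, -1.70) and another that was higher (0.52). Glrb, the beta subunit of glycine receptors, was lower at the same place in both 8-week tables, at 6.63, 15.2 and 17.6 against 64.3, 68.9 and 23.2 (-1.86) and at 8.96 and 2.48 against 22.3, 20.6 and 16.0 (-1.79). Glra1 rose after TNF from 0.86, 5.33 and 1.23 to 10.9 and 9.92 (1.94).

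Nicotinic receptor genes gave 8 regions, 1 for each of 8 genes. Besides the losses at Chrna1 and Chrnb1 given above, the gene of another muscle receptor subunit, Chrnd, fell after TNF from 23.1, 19.8 and 8.6 to 3.98 and 2.48 (log2 fold -2.02, adjusted p = 0.0109). Of the neuronal subunits, Chrna2 rose after TNF from 8.56, 6.09 and 4.91 to 16.9 and 12.4 (1.07, adjusted p = 0.0446). Chrna4 rose at 3 weeks from 12.2, 15.4 and 22.7 to 29.2, 38.7 and 33.6 (1.00). Chrnb3 rose at 11 weeks from 44.9, 42.8 and 30.2 to 56.6, 73.3 and 71.6 (0.77). Of the 4 regions matched by letters only, Glrx3, a glutaredoxin, rose at 3 weeks from 1.88, 10.9 and 7.95 to 19.4, 28.3 and 27.7 (1.94). Glrx2, Glrx5 and Glrp1 fell after TNF, with folds of -1.32, -1.53 and -1.51.

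Few of these regions recurred between tables, and how often all listed regions or genes recurred was not counted here. Of the 110 regions at 3 weeks, 2 overlapped one of 8 weeks (2.27% of the 88), 3 one of 11 weeks (5.08% of the 59) and 5 one of the TNF table (3.29% of the 152). The 8- and 11-week tables shared 4. The directions were the same in 1 of 2, 3 of 3, 1 of 5 and 1 of 4, respectively. The 11-week and TNF tables shared 5, of which 1, at Cacna2d3, had the same direction. The 2 tables at 8 weeks had 17 pairs, or 19.3% of the 88 and 11.2% of the 152, and they share their WT libraries. By gene the recurrence was wider: 61 genes were listed in 1 table, 38 in 2, 29 in 3 and 9 in all 4, among them Cacna1a, Cacna1c, Cacna1d, Cacna1g, Cacnb4, Grik4, Kcnh1 and Kcnj6.

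The gene-body regions lay far from starts. Their median distance was 61.3 kb at 3 weeks, 71.7 kb at 8 weeks, 47.7 kb at 11 weeks and 67.7 kb after TNF, beside 37.0, 36.1, 42.6 and 33.3 kb for all listed gene-body regions. The genes themselves were long, with a median span of 166 to 223 kb over the 4 tables beside 74.3 to 98.1 kb. The deposited classes do not separate exons from introns. Where a gene had 2 or more regions in a table, all folds had the same sign, called or not, in 10 of 22 genes at 3 weeks, 11 of 18 at 8 weeks, 9 of 11 at 11 weeks and 13 of 32 after TNF.

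On the X chromosome 10 regions were listed, with folds from -1.77 to 1.00. At 8 weeks the 2 largest changes were both at Gabra3, an alpha subunit of GABA-A receptors. They stood at 14.6, 15.9 and 4.41 against 48.2, 44.2 and 24.3 (-1.77) and at 6.63, 11.1 and 10.3 against 34.7, 24.7 and 32.0 (-1.62), whereas of all 981 X regions at 8 weeks, 926 were listed by the authors as gained, 80 were called higher here and 42 lower. At 3 weeks Cacna1f was higher (0.80) and Gria3 did not pass (0.15). At 11 weeks Gria3 was higher (1.00) and Glra4 lower (-0.85). After TNF Kcnd1 (-1.60) and the Cacna1f promoter region (-1.59) were lower, where of all 603 X regions 440 were called higher and 116 lower. Of the 29 listed Y regions at 3 weeks, 28 were lower and 1 did not pass. The part of the sex of the cultures in the X values was not tested.

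Other channels, scaffolds and auxiliary genes of the same complexes, a list of 100 genes, were counted the same way. At 3 weeks 39 of 97 of their regions were higher and 39 lower, at 8 weeks 12 of 68 and 23, at 11 weeks 34 of 51 and 12, and after TNF 32 of 106 and 69. The median folds were -0.11, -0.74, 1.06 and -1.01, beside 0.00, -0.94, -0.46 and -1.07 for the channel and receptor regions and -0.08, -0.94, 0.83 and -1.18 for all listed regions at genes. At 11 weeks the folds of the channel and receptor regions fell on both sides, 28 above 0 and 31 below, and their median moved to -0.23 without WT library 1. Regions at neuron marker genes numbered 4 higher and 3 lower of 9 at 3 weeks, 0 and 1 of 4 at 8 weeks, 3 and 3 of 6 at 11 weeks and 1 and 9 of 10 after TNF. Those at fibroblast marker genes numbered 5 and 1 of 7, 0 and 1 of 3, 1 and 0 of 2, and 1 and 3 of 4.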

How the data were processed

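Methylated DNA was captured with a methyl-CpG-binding protein after sonication, its low- and high-salt fractions were combined, and pairs of 100 bp were sequenced, per the labels' protocols. BWA, TopHat, TopHat2, Cufflinks, Cuffdiff and mm9 are named in the submitters' processing notes, with no role. No program for the group comparison is given in the sources used here. As deposited, the signal of each region is a normalized read value per library and a mean per group, computed by the authors, and the log2 fold change, p-value and adjusted p-value beside it are also the authors', per the file headers. Those p-values entered no fit here. They were used to choose the regions left out under the exact binomial bound.

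The treatment columns were taken to hold the Tg197 or TNF-treated libraries. A library is named by its place in the packed cell. All regions of a table entered a limma 3.58.1 fit (R 4.3.3, trend option) of log2(value + 1), with Benjamini-Hochberg adjustment, threshold 0.05, two-sided, without a filter. The added 1 shrinks folds of low regions. Whole reads were recovered from the values within 0.1 for 100% of low values. Even numbers made up 57.0% to 68.4% of recovered reads per region up to 20, so reads are not independent molecules. The fit was also run on simulated data whose regions were not selected for a difference. Since listed regions were so selected, that run cannot check the calls made here. Promoter classes are within 250 bp, 1 kb or 3 kb of a start, and overlaps are of at least 1 bp.

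Members, lists and tests were chosen with earlier results of these data known. Named in each table were all promoter-class regions, the largest rise and fall of each family whose higher group had a mean of 10 or more, all regions overlapping another table's, and the 2 largest changes on X. Regions of Cacna1c, Kcnma1, Kcnh1, Kcnj6, Grin2b, Grik4, Scn1a and Scn7a beyond these, those matched by letters, and single further regions were named after their values were seen. Some regions chosen by this rule are counted but not reported here by name. Glrp1 was added to the letter matches after the tables were read.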

Additional observations from a re-analysis of the deposited data

Results flagged for a closer look

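At 12 places, regions of 2 tables overlapped and moved in opposite directions, with every library of a group beyond every library of the other in both tables. The difference between the comparisons was not tested, since the tables were normalized separately. The log2 folds were -0.41 at 3 weeks and 0.76 at 8 weeks for Grik2, -1.47 at 8 weeks and 1.37 at 11 weeks for Cacng5, and 1.67 at 8 weeks and -1.13 at 11 weeks for Grik3.

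Each relative to WT, the folds in Tg197 at 3 weeks and after TNF were -0.07 and 0.10 for Gabrp, 0.85 and -2.12 for Kcnma1, -0.55 and 0.52 for Kcnh7, and -0.39 and 0.45 for Grin2b. Those at 11 weeks and after TNF were -1.00 and 0.69 for Kcnc2, -0.78 and 0.72 for Kcnj6, -0.61 and 0.84 for Scn1a, and -1.71 and 0.76 for Kcnip4. At a second Kcnip4 place they were 0.50 at 8 weeks in Tg197 and -1.20 after TNF. Neither Gabrp fold nor the Kcnip4 fold at 8 weeks passed the test in its own table. Overlaps were partial at several of these places, for instance 200 bp at both Kcnip4 places and at Grin2b.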

How the results depend on the processing

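No paired analysis was possible because the packed values carry no replicate numbers. Counts are given as higher and lower. Adjusted over the estimated 749000 to 902000 windows that the authors tested, limma called 0 and 0 in each of the 4 tables, where 98 of 110, 66 of 88, 52 of 59 and 146 of 152 regions had an unadjusted p under 0.05. With a pseudocount of 0.1 the counts were 0 and 0 at 8 weeks, as over all listed regions, and 34 and 102 after TNF. At 8 weeks 61 were then at an unadjusted p under 0.05. Leaving out 1 library gave 51 to 52 and 33 to 42 at 3 weeks, 0 to 31 and 0 to 39 at 8 weeks, 0 to 25 and 0 to 23 at 11 weeks, and 23 to 42 and 79 to 103 after TNF. In the last, the lowest counts were without the library counted once for 2 deposits or TNF-treated library 3 (26 and 88), fits in which the lone treated sample is assumed to vary like the WT group. Without regions whose deposited p was over 10 times below an exact binomial bound, 49 and 23 remained at 3 weeks, since 32 of the 110 were removed. Of all 13125 listed regions 4885 were removed, and the calls went from 5291 and 5862 to 5031 and 2531. For the channel and receptor regions, limma voom on recovered reads gave 52 and 45, 14 and 38, 27 and 23, and 45 and 100. Leaving out X and Y or low regions moved no count by over 1.5 times. Of 1627 refits of the 141 regions that the naming rule chose, 412 lost the call, 8 gained it and 0 changed sign. The shallow 11-week table limits what can be seen at low values.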
